A study of Mus musculus with 23 samples.

Results

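The genes described here write, copy or read methylation of CpG dinucleotides in mouse DNA. They are Dnmt1, Uhrf1 and Hells, which keep methylation through cell division, Dnmt3a and Dnmt3b, which add it to unmethylated sites, and the methyl-CpG binding domain genes Mbd1, Mbd2 and Mbd3. They were chosen by name, as genes for which the annotation of the array lists probe sets that name that gene and no other. This gave 8 genes of 12393 on the array, measured by 20 probe sets, and each gene was represented by the probe set with its highest mean log2 value over all arrays. Values are log2 of the deposited intensity, and one probe set's level is not set against another's.

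After replication the new DNA strand carries no methyl groups. Uhrf1 recognises CpG sites methylated on the old strand only and recruits Dnmt1, the maintenance methyltransferase, and Hells is a chromatin remodeller of the SNF2 family that gives the machinery access to packed chromatin. Dnmt3a and Dnmt3b are the de novo methyltransferases. Mbd1 and Mbd2 bind methylated CpG sites and recruit repressors, while Mbd3 is a subunit of the NuRD deacetylase and remodelling complex and binds methylated DNA weakly or not at all. In dividing cells the maintenance genes are transcribed mainly around S phase, and T cells need Dnmt1 to divide and to keep lineage genes silent.

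The study asked how Snf5 (gene symbol Smarcb1), a core subunit of the SWI/SNF remodelling complex, and Ezh2, the histone H3 methyltransferase of the Polycomb repressive complex, oppose each other in gene control and in tumours. Mouse embryonic fibroblasts (MEFs) of stage E13.5 came as 3 Ezh2-deficient arrays with 3 wild-type controls and as 3 Snf5 Ezh2-deficient arrays with 3 wild-type controls. Both mutant lines were made by conditional inactivation. Purified CD8+ T cells of wild-type mice gave 6 arrays and CD8+ cells of Snf5-deficient lymphomas gave 5, from mice 10 to 15 weeks old. No Snf5-deficient MEFs and no untransformed Snf5-deficient T cells were analysed here, so the effect of Snf5 alone cannot be told apart from that of Ezh2 in the first case and of transformation in the second. What drove the inactivation, how complete it was and whether animals were pooled: the sources used here do not give these.

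The 23 arrays fell into 3 blocks whose values were scaled separately: each MEF set and the T cell arrays. The second set's wild-type MEF arrays repeat the hybridisations of the first. This was read over 7349 probe sets with a mean log2 value above 9, after the mean difference between both control sets was removed per probe set. The SD of the remaining difference was 0.0266 to 0.0287 between arrays of equal number and 0.141 to 0.163 between arrays of unequal number. The repeated arrays were counted once, which leaves 9 distinct MEF arrays, and both MEF comparisons share these controls. Ezh2 itself fell by 2.18 on the log2 scale without Ezh2 (adjusted p = 9.32e-06) and had a difference of -1.66 in the double mutants (adjusted p = 8.99e-06). Smarcb1 fell by 2.46 in the double mutants (adjusted p = 1.01e-07) and by 3.65 in the lymphomas (adjusted p = 0.00244). The lymphoma arrays 3 and 4 had 5.81 and 5.64 for Smarcb1 and the other 3 had 8.30 to 8.67, all below the wild-type range of 10.38 to 11.48. Whether these probes fall in deleted exons was not analysed here.

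Defining markers of the labelled cell types were present. Each MEF array had a summed intensity of 25915 or more for 6 fibroblast markers, against 5588 to 12212 in the T cell arrays. Of these markers Thy1 was high in both, with log2 values of 11.14 to 12.78 in MEFs and 12.34 to 13.55 in T cell arrays. The T cell arrays had 19782 to 62495 for 5 CD8 T cell markers against at most 349 in MEFs. The lowest of these were wild-type CD8 arrays 6 and 1 (19782 and 24865), against 39591 or more in every other T cell array. Wild-type CD8 arrays 1 and 6 stood apart with summed intensities of 39414 and 40729 for 6 myeloid markers and 15518 and 13739 for 4 B cell markers. The other 4 wild-type arrays had 628 to 1504 and 1202 to 2176, and the lymphomas 1496 to 13374 and 290 to 688. The proliferation level of an array is the mean log2 value of Mki67, which encodes the Ki-67 antigen of cycling cells, and Top2a, the topoisomerase of replicating and mitotic DNA. Wild-type CD8 arrays 3 and 4 stood apart here, at 9.58 and 9.64 against 12.29 to 13.29 in the other 4 wild-type arrays and 12.72 to 13.10 in the lymphomas. Arrays 1 and 6 had the highest wild-type levels, 13.10 and 13.29, so cell composition and proliferation level partly vary together in this group. Some T cell results of the methylation genes and readers are therefore also given without arrays 3 and 4 or without arrays 1 and 6. T cell results of the gene lists below are given with all arrays only. In such bulk RNA, fewer cells of a type and less RNA per cell cannot be told apart.

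RefSeq promoter windows (GRCm38.p6, 250 bases before to 50 bases after a transcript start, read along the gene's strand) were in the table used for 6 of the 8 genes, not for Mbd1 and Mbd2. The windows of the 3 maintenance genes are shown because these 3 genes carry the comparisons with proliferation below. They were searched for letters of the E2F type, the binding motif of the factors that drive S phase genes, as TTTCCCGC, TTTCGCGC, TTTGCCGC or TTTGGCGC on either strand. Of 32851 mouse windows of this length, 744 (2.27%) held at least 1 of these. Each maintenance gene had a window with such letters, printed in capitals: Dnmt1 at chr9:20952574-20952873 on the minus strand, Uhrf1 at chr17:56304063-56304362 on the plus strand and Hells at chr19:38930740-38931039 on the plus strand.
Dnmt1: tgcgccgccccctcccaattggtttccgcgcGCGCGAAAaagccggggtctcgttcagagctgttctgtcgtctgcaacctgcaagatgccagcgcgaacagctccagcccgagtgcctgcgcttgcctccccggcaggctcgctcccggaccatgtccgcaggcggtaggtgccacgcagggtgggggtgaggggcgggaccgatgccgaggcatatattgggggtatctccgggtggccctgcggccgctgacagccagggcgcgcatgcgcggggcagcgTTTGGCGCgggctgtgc
Uhrf1: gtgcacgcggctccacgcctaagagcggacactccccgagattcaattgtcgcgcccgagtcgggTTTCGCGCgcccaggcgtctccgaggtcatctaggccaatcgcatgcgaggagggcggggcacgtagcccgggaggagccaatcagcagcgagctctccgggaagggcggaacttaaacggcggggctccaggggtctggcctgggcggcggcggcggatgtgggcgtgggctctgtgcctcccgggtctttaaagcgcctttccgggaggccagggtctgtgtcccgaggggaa
Hells: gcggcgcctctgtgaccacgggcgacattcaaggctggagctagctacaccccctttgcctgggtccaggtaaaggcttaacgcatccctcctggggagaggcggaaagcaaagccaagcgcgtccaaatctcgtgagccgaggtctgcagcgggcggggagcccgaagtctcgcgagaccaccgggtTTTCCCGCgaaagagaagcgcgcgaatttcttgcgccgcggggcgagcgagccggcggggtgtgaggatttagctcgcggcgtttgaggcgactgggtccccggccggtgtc

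In the Dnmt1 window the first stretch, GCGCGAAA at bases 32 to 39, is TTTCGCGC read on the other strand, and the second is TTTGGCGC at bases 284 to 291, inside the transcript. In the Uhrf1 window TTTCGCGC stands at bases 66 to 73, and in the Hells window TTTCCCGC stands at bases 189 to 196. The Dnmt1, Uhrf1 and Hells windows held 33, 33 and 34 CpG sites, against a median of 7 over all windows. The other 2 Dnmt1 windows, the other Uhrf1 window, the 3 windows of Dnmt3a and those of Dnmt3b and Mbd3 held none of these letters. The shorter letters TTTGAA, as in the CHR element of genes expressed in mitosis, were in 1 of the other Dnmt1 windows and in the Dnmt3b window, and in 17.9% of all windows. The share of 2.27% with E2F letters is per window, while Dnmt1 had 3 windows and Uhrf1 had 2. Windows of like CpG content were not counted apart, so this share is no matched background for these genes. A match describes the letters only, and binding was not measured.

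In Ezh2-deficient MEFs, Uhrf1, Hells and Mbd3 were lower than in their wild-type controls. The test passed for 3 of the 8 genes, all lower, against 3.49% of all genes called and 2.47% called lower. The median difference of the 8 genes was -0.32 on the log2 scale and that of all genes 0.00. The 3 Ezh2-deficient arrays lay outside the wild-type range for 6 of the 8 genes, as they did for 33.7% of all genes.

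Uhrf1 read 7.59, 7.80 and 7.61 in wild-type arrays 1 to 3 and 6.97, 6.99 and 7.31 in the Ezh2-deficient arrays. It fell 1.49-fold (log2 difference -0.58, SE 0.109, adjusted p = 0.0244), and its second probe set fell by 0.49 (adjusted p = 0.0458). The groups did not overlap, and Ezh2-deficient array 3 was nearest to the controls. Hells read 7.61, 7.69 and 7.55 in the controls and 7.0, 7.20 and 7.20 without Ezh2. It fell 1.40-fold with no overlap (log2 difference -0.48, SE 0.0969, adjusted p = 0.0316). Dnmt1, the enzyme that Uhrf1 recruits, read 7.97, 8.18 and 7.87 against 7.56, 7.49 and 7.89. Its difference of -0.36 did not pass the test (95% interval -0.61 to -0.12, adjusted p = 0.0925), and Ezh2-deficient array 3 lay within the control range, although its second probe set had the same difference with no overlap (-0.37, adjusted p = 0.0545).

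Mbd3, the NuRD subunit, read 9.55, 9.65 and 9.49 in wild-type and 9.30, 9.16 and 9.28 in Ezh2-deficient MEFs. It fell 1.25-fold (log2 difference -0.32, SE 0.0662, adjusted p = 0.0352), with no overlap. Mbd1 read 8.43, 8.71 and 8.76 against 8.35, 8.26 and 8.32, also with no overlap, but its difference of -0.32 missed the threshold (adjusted p = 0.0707). Mbd2 was 9.02 to 9.04 in the controls and 9.07 to 9.24 without Ezh2 (0.11, 95% interval -0.02 to 0.24, adjusted p = 0.293). The de novo enzymes had differences of 0.07 for Dnmt3a (95% interval -0.13 to 0.26, adjusted p = 0.675) and 0.10 for Dnmt3b (-0.12 to 0.32, adjusted p = 0.554). Levels of Dnmt3b in MEFs lay between 23.7% and 31.0% of the way up the ranked values of each array, where a difference between RMA values may be one near the floor.

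The calls in this comparison were easily lost. Leaving out 1 of its 6 arrays at a time left 0 to 2 of the 3 calls: Mbd3 lost its call in each case (adjusted p 0.0579 to 0.131), Hells lost it in 5 of 6 cases and Uhrf1 in 4 of 6. The count over all genes moved with them, from 432 to 87 without wild-type array 2 and 443 at most.

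**Figure D1:**
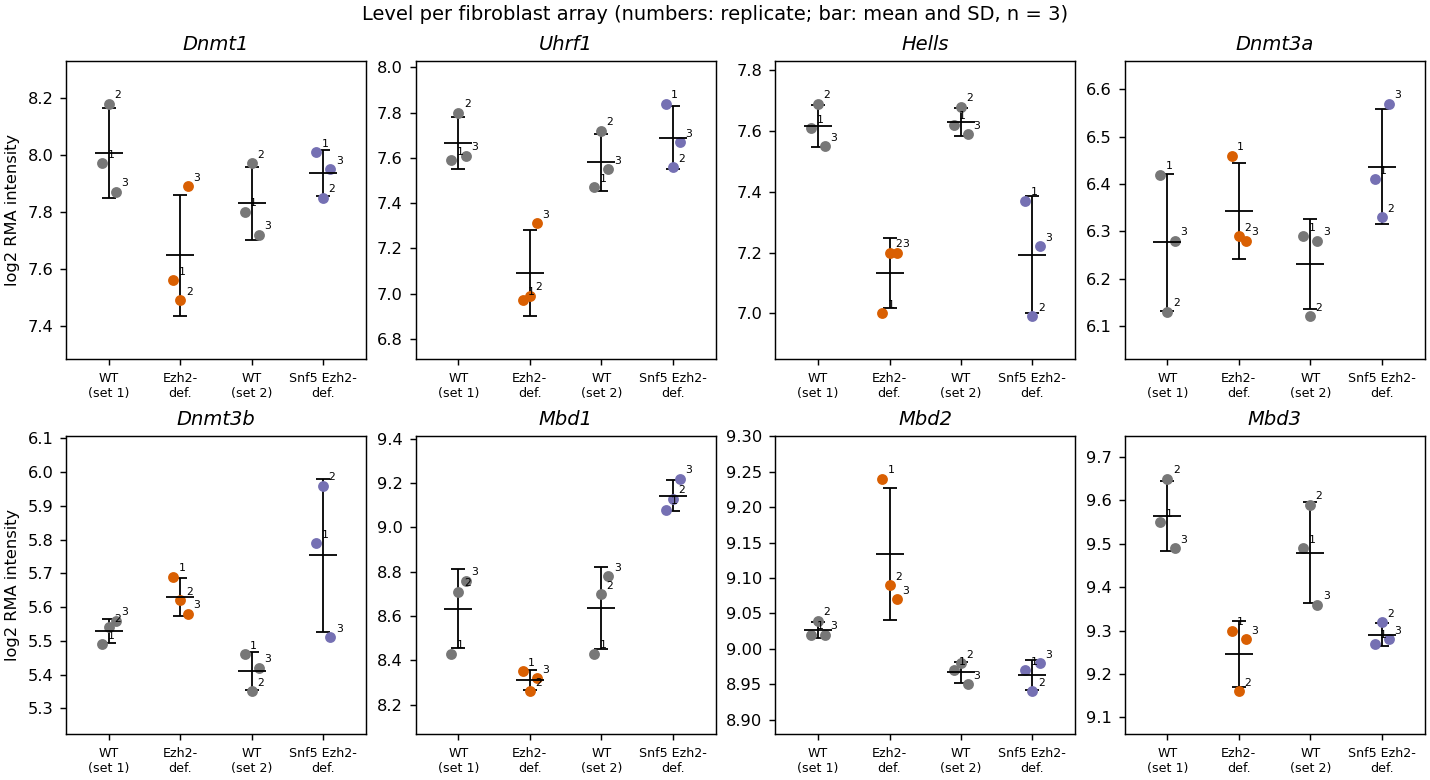
Level of each gene (log2 RMA intensity, own vertical scale per panel) in every fibroblast array, by group on the horizontal axis. Points are arrays with their replicate number, and bars are the mean and SD of 3 arrays. Both wild-type columns are the same hybridisations summarised separately. Hells is lower in both mutant groups, Uhrf1 is lower in the Ezh2-deficient group (6.97 to 7.31) than in the double mutants (7.56 to 7.84), and Mbd1 is highest in the Snf5 Ezh2-deficient group.

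In MEFs lacking both Snf5 and Ezh2, Mbd1 and Dnmt3b were higher and Hells was lower than in wild-type MEFs. These were 2 genes called higher and 1 called lower of 8, against 27.5% of all genes called, 13.2% higher and 14.3% lower. The share of calls among the 8 genes was thus not far from that of all genes. The groups did not overlap for 5 of the 8 genes, as for 43.9% of all genes.

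Mbd1 read 8.43, 8.70 and 8.78 in wild-type arrays 1 to 3 of this summary. The 3 double-mutant arrays gave 9.08, 9.13 and 9.22. It rose 1.42-fold with no overlap (log2 difference 0.51, SE 0.0873, adjusted p = 0.00187). A second Mbd1 probe set rose by 0.39 (adjusted p = 0.00683), and the other 3 had differences of -0.09 to 0.02 that did not pass. One of these 3 lay 2.2% to 4.9% of the way up the ranked values of the MEF arrays, near the floor, so its small difference says little. The 2 others lay at 23.8% to 29.5% and at 54.3% to 59.4%.

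Dnmt3b read 5.46, 5.35 and 5.42 in the controls and 5.79, 5.96 and 5.51 in the double mutants. Its rise of 0.34 (SE 0.097, adjusted p = 0.0264) was one of low values. The call ended in 5 of 6 cases when 1 array was left out (adjusted p 0.0538 to 0.0906), and the second Dnmt3b probe set had 0.09 (adjusted p = 0.321). Dnmt3a, its close relative, read 6.29, 6.12 and 6.28 against 6.41, 6.33 and 6.57, with no overlap and a difference of 0.21 that did not pass (adjusted p = 0.107).

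Hells read 7.62, 7.68 and 7.59 in the controls and 7.37, 6.99 and 7.22 in the double mutants. It fell 1.36-fold with no overlap (log2 difference -0.44, SE 0.0969, adjusted p = 0.00715). The differences of its partners in maintenance did not pass. Uhrf1 read 7.47, 7.72 and 7.55 against 7.84, 7.56 and 7.67 (0.11, 95% interval -0.13 to 0.35, adjusted p = 0.523). Dnmt1 read 7.80, 7.97 and 7.72 against 8.01, 7.85 and 7.95 (0.11, 95% interval -0.14 to 0.35, adjusted p = 0.542). Both overlapped between the groups. Mbd3 was 9.36 to 9.59 in the controls and 9.27 to 9.32 in the double mutants (-0.18, adjusted p = 0.0665), and Mbd2 was 8.95 to 8.98 and 8.94 to 8.98 (-0.01, 95% interval -0.14 to 0.13, adjusted p = 0.957).

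Set against the Ezh2-deficient MEFs, with each mutant line first compared with the shared controls, the double mutants had more Mbd1, Uhrf1 and Dnmt1 RNA. The differences were 0.83 for Mbd1 (SE 0.0873, adjusted p = 1.01e-04), 0.69 for Uhrf1 (SE 0.109, adjusted p = 0.00119) and 0.47 for Dnmt1 (SE 0.109, adjusted p = 0.00963). These 3 of 8 genes stand beside 29.9% of all genes called, 16.3% higher and 13.6% lower, and 5 of 8 did not overlap beside 44.2% of all genes. Both probe sets of Uhrf1 and of Dnmt1 passed (0.60 and 0.46 for the second sets), and 2 of the 5 of Mbd1. The difference for Hells was 0.04 (95% interval -0.17 to 0.26, adjusted p = 0.779), so its levels in the mutant lines were not distinguishable. For Dnmt1 the call was lost when all 12 MEF arrays entered with their own controls (adjusted p = 0.0684), a fit that includes the error of the scaling between sets. Ezh2 itself was higher in the double mutants than in the Ezh2-deficient MEFs (0.52, adjusted p = 0.00812), with no overlap. The lines thus differed in this signal as well as in Smarcb1.

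The order of levels on the common MEF scale was as follows. Uhrf1 averaged 7.78 ± 0.144 (SD, n = 3) in double mutants, 7.67 ± 0.122 in wild type and 7.09 ± 0.193 without Ezh2, and only the last step exceeded the spread. Mbd1 averaged 9.14 ± 0.0704 in double mutants, 8.64 ± 0.183 in wild type and 8.31 ± 0.0444 without Ezh2, where the upper step passed the test and the lower one did not. Hells averaged 7.62 ± 0.0555 in wild type, then 7.18 ± 0.192 in double mutants and 7.13 ± 0.118 without Ezh2, with the mutant lines not apart.

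The proliferation level fell in the Ezh2-deficient MEFs together with Uhrf1 and Hells. It was 8.65, 9.14 and 8.82 in wild-type arrays and 8.03, 8.21 and 8.38 without Ezh2, with no overlap, and both components fell (Mki67 by 0.69, adjusted p = 0.0256, and Top2a by 0.64, adjusted p = 0.0315). In the double mutants it was 8.90, 8.68 and 8.84 against 8.58, 9.06 and 8.75, with overlap, and Mki67 (-0.14, adjusted p = 0.50) and Top2a (0.15, adjusted p = 0.456) did not pass. With the proliferation level as a covariate, 0 of 8 genes were called in the Ezh2-deficient MEFs, none of them at an unadjusted p under 0.05, and 0.0403% of all genes (5). The differences became -0.10 for Uhrf1 (95% interval -0.44 to 0.24), -0.17 for Hells (-0.56 to 0.22), -0.25 for Mbd3 (-0.57 to 0.06) and 0.05 for Dnmt1 (-0.34 to 0.45). The level differed between these groups without overlap, so genotype and proliferation cannot be told apart in these arrays.

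In the double mutants the same 3 genes were called with the covariate as without it. Mbd1 kept 0.50 (adjusted p = 0.00273), Dnmt3b 0.34 (adjusted p = 0.0301) and Hells -0.44 (adjusted p = 0.00475), with 26.6% of all genes called. Hells was thus lower here in arrays whose proliferation level overlapped that of the controls. Between the mutant lines, 0 of 8 genes were called with the covariate (2 at an unadjusted p under 0.05), beside 2.92% of all genes, and Mbd1 had 0.66 (adjusted p = 0.0929), Uhrf1 0.21 (adjusted p = 0.580) and Dnmt1 0.05 (adjusted p = 0.942).

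**Figure D2:**
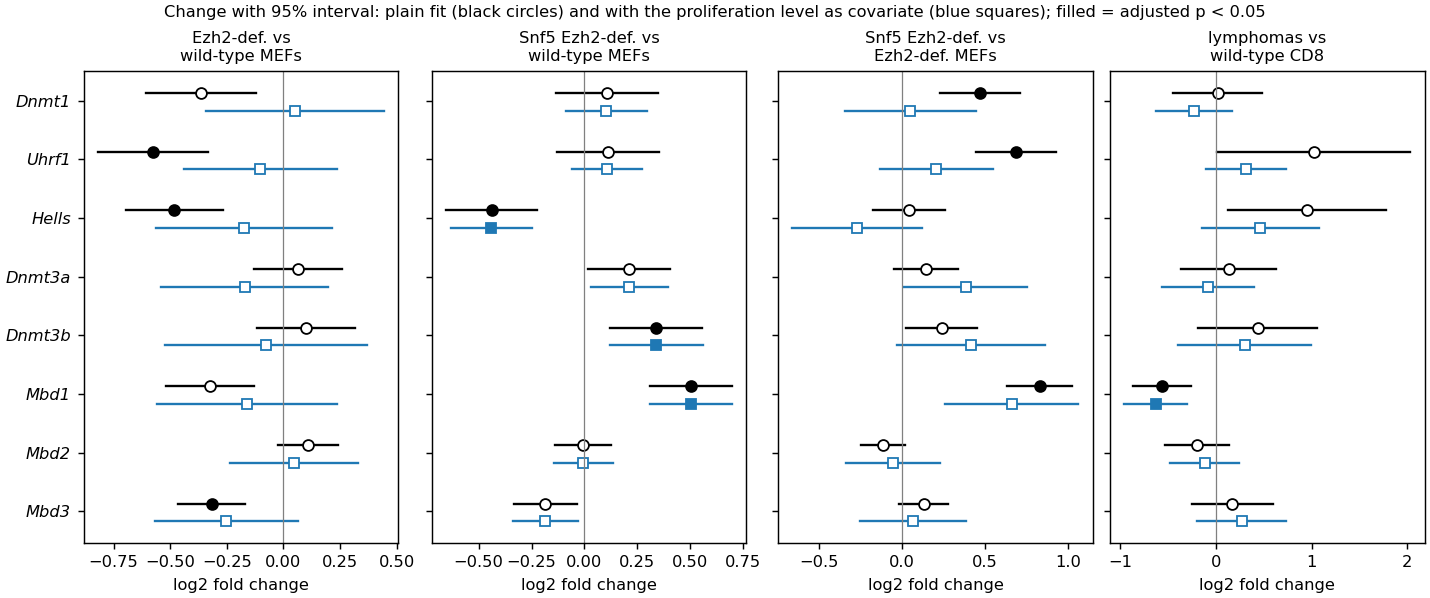
Difference in log2 level with its 95% interval for each gene in the 4 comparisons (horizontal axes differ between panels). Black circles are the plain fit, blue squares the fit with the proliferation level as covariate, and filled symbols have an adjusted p under 0.05. The left panel has filled circles for Uhrf1, Hells and Mbd3 and no filled square. Mbd1 is filled in both fits in the double mutants (0.51 and 0.50) and, on the other side of 0, in the lymphomas (-0.56 and -0.63).

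Within groups of MEF arrays, no slope on the proliferation level passed the test. Mki67 and Top2a, which make up that level, did not pass either (slopes 1.01 and 0.99, limma adjusted p = 0.407). The fit had 5 residual degrees of freedom, and the proliferation level had an SD of only 0.113 to 0.252 within MEF groups. The slope test did not call even the components of that level, so it says little about the 8 genes. Uhrf1 had a slope of 0.72 (SE 0.197) and Dnmt1 of 0.63 (SE 0.229) log2 units per log2 unit, each with an adjusted p of 1.00, Hells had 0.46 (SE 0.226) and Dnmt3a -0.36 (SE 0.215). By limma over all probe sets, 0 of the 8 slopes were called with 2 at an unadjusted p under 0.05, and 0 of 12393 genes with 508 at an unadjusted p under 0.05. Over the 9 arrays Dnmt1 and Uhrf1 had a correlation of 0.97, while Hells had 0.41 with Dnmt1 and 0.48 with Uhrf1, as a description of arrays that share their groups.

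In the lymphomas, Mbd1 was lower than in wild-type CD8+ T cells and was the single gene of the 8 to pass the test. This compares with 16.8% of all genes called, 9.13% higher and 7.71% lower. It was also the single gene without overlap, as for 12.8% of all genes. Mbd1 had a lowest level of 10.87, a median of 11.09 and a highest of 11.42 in the 6 wild-type arrays, and 10.60, 10.43, 10.69, 10.36 and 10.65 in lymphomas 1 to 5. It fell 1.47-fold (log2 difference -0.56, SE 0.137, adjusted p = 0.0195). In an exact two-sided permutation test of this gene, p was 0.00216, the smallest that 6 against 5 arrays allow.

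The fall of Mbd1 was of like size without wild-type arrays 3 and 4 (-0.62, adjusted p = 0.0303) and without arrays 1 and 6 (-0.52, adjusted p = 0.0358), and it was -0.63 with the proliferation level as covariate (adjusted p = 0.0178). It lost its call without lymphoma array 4 (-0.51, adjusted p = 0.0563) and with the replicate number as a block in the fit. The summed B cell markers also separated the groups, at 1202 or more in every wild-type array and at most 688 in the lymphomas. Leaving out arrays 1 and 6 does not remove that separation, and its part in the Mbd1 difference was not tested. The other 4 probe sets of Mbd1 also had lower means in the lymphomas, by 0.42 to 0.62, and none of them passed, while the mean of all 5 had -0.52 (adjusted p = 0.104). In the double mutant MEFs the same probe set of Mbd1 had risen, in another cell type that was normalised separately. Whether these changes differ was not tested.

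The maintenance genes Uhrf1 and Hells had higher means in the lymphomas, without passing. Uhrf1 had a lowest level of 10.11, a median of 12.33 and a highest of 12.63 in wild-type arrays, and 12.95, 13.01, 12.63, 12.63 and 12.74 in the lymphomas. The low values were wild-type arrays 3 and 4, at 10.67 and 10.11, and the highest wild-type array met the lowest lymphomas. The difference was 1.02 (95% interval 0.02 to 2.03, adjusted p = 0.160, exact permutation p = 0.0390 before adjustment over the 8 genes), and it was 0.34 without arrays 3 and 4 (adjusted p = 0.195). The second Uhrf1 probe set passed (1.94, adjusted p = 0.0456), with overlap, and had 1.29 with the covariate (adjusted p = 0.106).

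Hells had a lowest level of 9.06, a median of 10.20 and a highest of 11.35 in wild-type arrays, and 11.17, 11.29, 10.72, 11.21 and 10.93 in the lymphomas. Arrays 3 and 4 were again lowest, and the highest of all 11 was wild-type array 5. The difference was 0.95 (95% interval 0.12 to 1.78, adjusted p = 0.116, exact permutation p = 0.0541), and it was 0.47 without arrays 3 and 4 (adjusted p = 0.296). It passed without wild-type array 5 (1.2, adjusted p = 0.0302).

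Dnmt1 had 12.78, 13.29 and 13.89 as lowest, median and highest level in the wild-type arrays, and 13.47, 13.35, 13.07, 13.11 and 13.51 in the lymphomas, which lay inside that range. Its difference was 0.02 (95% interval -0.45 to 0.49, adjusted p = 0.964), and it turned to -0.22 without arrays 3 and 4. Dnmt3a had 10.20, 10.79 and 11.39 against 10.66, 11.36, 10.72, 10.96 and 10.82 (0.13, adjusted p = 0.721), and -0.11 without those arrays. Dnmt3b had 9.10, 9.47 and 10.52 against 10.48, 10.50, 9.68, 9.38 and 10.13. Lymphomas 1, 2, 3 and 5 were above every wild-type array but the fifth, and the difference of 0.44 did not pass (95% interval -0.18 to 1.06, adjusted p = 0.323). Wild-type array 5 had the highest level of the 11 arrays for Dnmt1, Dnmt3a, Dnmt3b and Hells. It also had the highest summed intensity of Cd4, the marker of helper T cells, at 2211. Wild-type arrays 1, 2 and 6 had 508 to 792, wild-type arrays 3 and 4 had 95 and 76, and the lymphomas had 60 to 106. The part of helper T cells in these levels was not tested.

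Mbd2 had a lowest, median and highest level of 12.99, 13.14 and 13.40 among wild-type arrays and of 12.62, 12.93 and 13.40 among lymphomas (-0.20, adjusted p = 0.402). Mbd3 had 9.71, 10.11 and 10.33 against 9.85, 9.78, 10.41, 10.52 and 10.65 (0.17, adjusted p = 0.575). Lymphomas 3, 4 and 5 were above every wild-type array for Mbd3, and lymphomas 1 and 2 were among the 3 lowest of all 11.

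**Figure D3:**
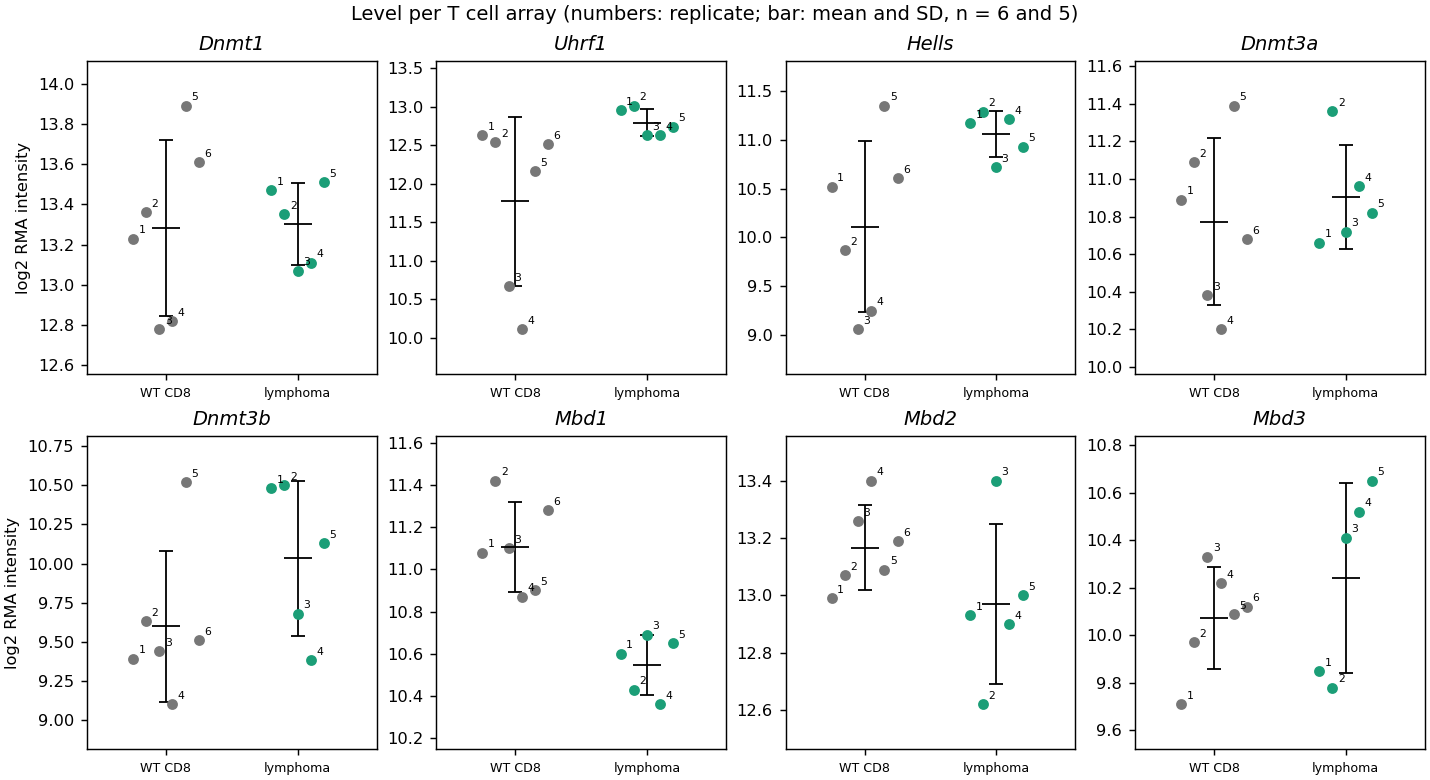
Level of each gene (log2 RMA intensity, own vertical scale per panel) in the 6 wild-type CD8+ T cell arrays and the 5 lymphoma arrays. Points are arrays with their replicate number, and bars are the mean and SD. The groups are separate for Mbd1, and wild-type arrays 3 and 4 are the lowest for Uhrf1, Hells, Dnmt1 and Dnmt3a.

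Across the T cell arrays, Uhrf1 and Hells followed the proliferation level. With group as a term, the slope was 0.63 for Uhrf1 (SE 0.074, adjusted p = 8.63e-04) and 0.43 for Hells (SE 0.108, adjusted p = 0.0414). These were 2 of 8 genes called, both positive, beside 7.68% of all genes called and 4.88% with a positive slope. Dnmt1 had 0.21 (SE 0.0695, adjusted p = 0.0884), and its second probe set passed (0.33, adjusted p = 0.0432). Dnmt3a had 0.18 (adjusted p = 0.204) and Dnmt3b 0.12 (adjusted p = 0.571). The slopes of the 3 readers did not pass: 0.06 for Mbd1 (95% interval -0.07 to 0.19), -0.07 for Mbd2 (-0.21 to 0.07) and -0.09 for Mbd3 (-0.27 to 0.09). The second Mbd2 probe set had -0.30 (-0.56 to -0.03, adjusted p = 0.150), an interval below 0 that did not pass after adjustment.

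These slopes rested on wild-type arrays 3 and 4. Both also had the lowest Cd4 intensity of the wild-type arrays, 95 and 76 against 508 or more. Cd4 signal and proliferation level thus vary together there, and the part of helper T cells in the slopes was not tested. Without arrays 3 and 4, 0 of 8 genes were called. The slope was then 0.21 for Uhrf1 (adjusted p = 0.682), 0.02 for Hells (adjusted p = 0.984) and -0.01 for Dnmt1 (adjusted p = 0.988). Without arrays 1 and 6, which have the high myeloid and B cell markers, Uhrf1 kept its call (0.70, adjusted p = 0.0137) and Hells did not (0.53, adjusted p = 0.154). Hells also lost it without wild-type array 1, 3, 4 or 6 or any 1 lymphoma array (adjusted p 0.0514 to 0.213).

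With the proliferation level as a covariate, the differences of Uhrf1 and Hells between lymphomas and wild-type cells stayed above 0 but did not pass the limma test. Uhrf1 had 0.31 (95% interval -0.11 to 0.73, adjusted p = 0.297) in place of 1.02, and Hells 0.46 (-0.15 to 1.07, adjusted p = 0.286) in place of 0.95. With that covariate 19.1% of all genes were called, and of the 8 only Mbd1. Subtracting each array's proliferation level from the level of a gene assumes a slope of 1, above the fitted slopes of all 8 genes, so it takes away more than the fit does. After it Uhrf1 averaged -0.06 ± 0.216 (SD, n = 5) in the lymphomas and 0.05 ± 0.686 (n = 6) in wild-type cells (exact two-sided permutation p = 0.740), and Hells -1.79 ± 0.309 and -1.61 ± 1.07 (exact permutation p = 0.710). For Mbd1, whose slope was 0.06, the subtraction mainly adds the proliferation difference of 1.14 to its own -0.56, and its value is not read here. The proliferation level itself had an exact permutation p = 0.247. These p-values are unadjusted.

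**Figure D4:**
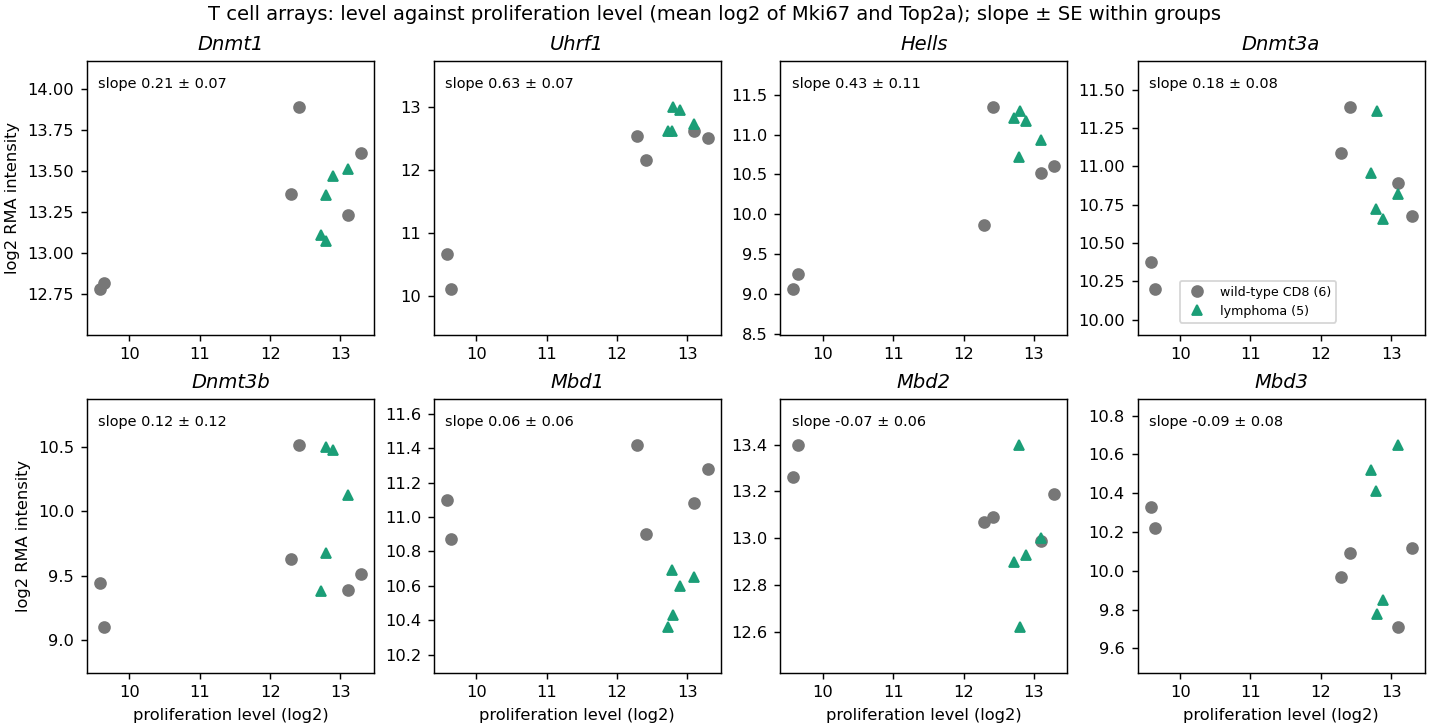
Level of each gene against the proliferation level (both log2) in the 11 T cell arrays, with the slope and its SE with group as a term. Circles are wild-type CD8+ arrays and triangles lymphomas. Wild-type arrays 3 and 4 lie alone at 9.58 and 9.64 on the horizontal axis, and the slope is largest for Uhrf1 (0.63).

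The other genes of the pathway were read from lists of named genes, each counted through its main probe set. Their values are from the plain fits, with no array left out and without the proliferation level as covariate. The part of proliferation or cell composition in these list results was not tested. Among 19 measured DNA replication genes, 10 were lower in Ezh2-deficient MEFs and 0 higher, with a median of -0.39, beside 2.47% of all genes called lower. Examples are Tk1, the thymidine kinase (-0.81), Mcm5, a subunit of the replicative helicase (-0.76), and Cdc6, which loads that helicase (-0.67). In double mutants 1 was lower, Mcm4 (-0.50), and 0 higher, with a median of -0.02, and 12 were higher in double mutants than in Ezh2-deficient MEFs, beside 16.3% of all genes. In the lymphomas 7 were higher and 0 lower, with a median of 0.97, beside 9.13% of all genes called higher. They include Tk1 (1.98), Tyms, the thymidylate synthase (1.48), and Lig1, the replicative ligase (1.31).

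Of 12 measured partners of replication-coupled methylation, Pcna, the sliding clamp that Dnmt1 binds, was lower in Ezh2-deficient MEFs (-0.56, adjusted p = 0.00701). In double mutants 2 were higher: Cbx5, the heterochromatin protein that reads histone H3 methylation (0.30), and Ehmt2, a histone H3 methyltransferase (0.27). This share is near the 13.2% of all genes called higher there. In the lymphomas 1 was higher, Setdb1, another histone H3 methyltransferase (0.56). Of 8 other methyl-CpG binding and methyltransferase-family genes, 0 passed in Ezh2-deficient MEFs or in the lymphomas, and Mbd4, a glycosylase that repairs deaminated CpG sites, was higher in double mutants (0.40, adjusted p = 0.00495), a count of 1 in 8 that is likewise near 13.2%.

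NuRD and its corepressor partners, which act with Mbd2 and Mbd3, had 4 of 11 measured genes lower in the double mutants and 0 higher, beside 14.3% of all genes lower and 13.2% higher. They were Chd4, the remodelling ATPase of NuRD (-0.50, adjusted p = 4.68e-04), Gatad2a (-0.35), Hdac2, a deacetylase (-0.27), and Rbbp4 (-0.17). The median of the list was -0.10 and that of all genes 0.00. In Ezh2-deficient MEFs only Rbbp4 of these 11 passed (-0.23), and in the lymphomas only Hdac1, the other deacetylase of the complex (0.90, adjusted p = 0.00223), which was higher.

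Of 8 measured genes for the supply of the methyl donor, 4 were higher in the double mutants and 0 lower, with a median of 0.30, beside 13.2% of all genes higher and 14.3% lower. Ahcy, which removes the inhibitory product of methylation, had 0.61 (adjusted p = 8.12e-05), Mthfd1, a folate enzyme, had 0.54, and Ahcyl1, a relative of Ahcy, had 0.49. In Ezh2-deficient MEFs 1 was lower, Mat2b (-0.28), the regulatory subunit of the donor's synthetase. In the lymphomas 3 were higher, beside 9.13% of all genes: Shmt1, a folate enzyme (1.10), Adk, the adenosine kinase (0.77), and Mthfd2, a folate enzyme of mitochondria (0.52).

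Of 10 measured genes of demethylation and repair, 4 were lower in the lymphomas and 0 higher, beside 7.71% of all genes lower and 9.13% higher, with a median of -0.40 against -0.07 for all genes. Gadd45a, a stress-induced gene linked to demethylation, was 5.01-fold lower (log2 difference -2.32, adjusted p = 0.00109), Tet1, which oxidises methylcytosine, had -1.90 (adjusted p = 0.0168), and Idh2, which makes the cofactor of Tet enzymes, had -1.79 (adjusted p = 6.04e-04). Idh2 was also lower in both mutant MEF lines (-0.47 and -0.40), which share controls. In double mutants 3 were higher, beside 13.2% of all genes: Apobec1, a cytidine deaminase (1.36), Parp1 (0.53) and Xrcc1 (0.45), both of strand break repair. Of 13 measured germline genes known to be silenced by promoter methylation, 0 passed in Ezh2-deficient MEFs, Brdt was higher in double mutants (0.33) and Sycp3 was lower in the lymphomas (-0.85), both from low values.

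**Figure D5:**
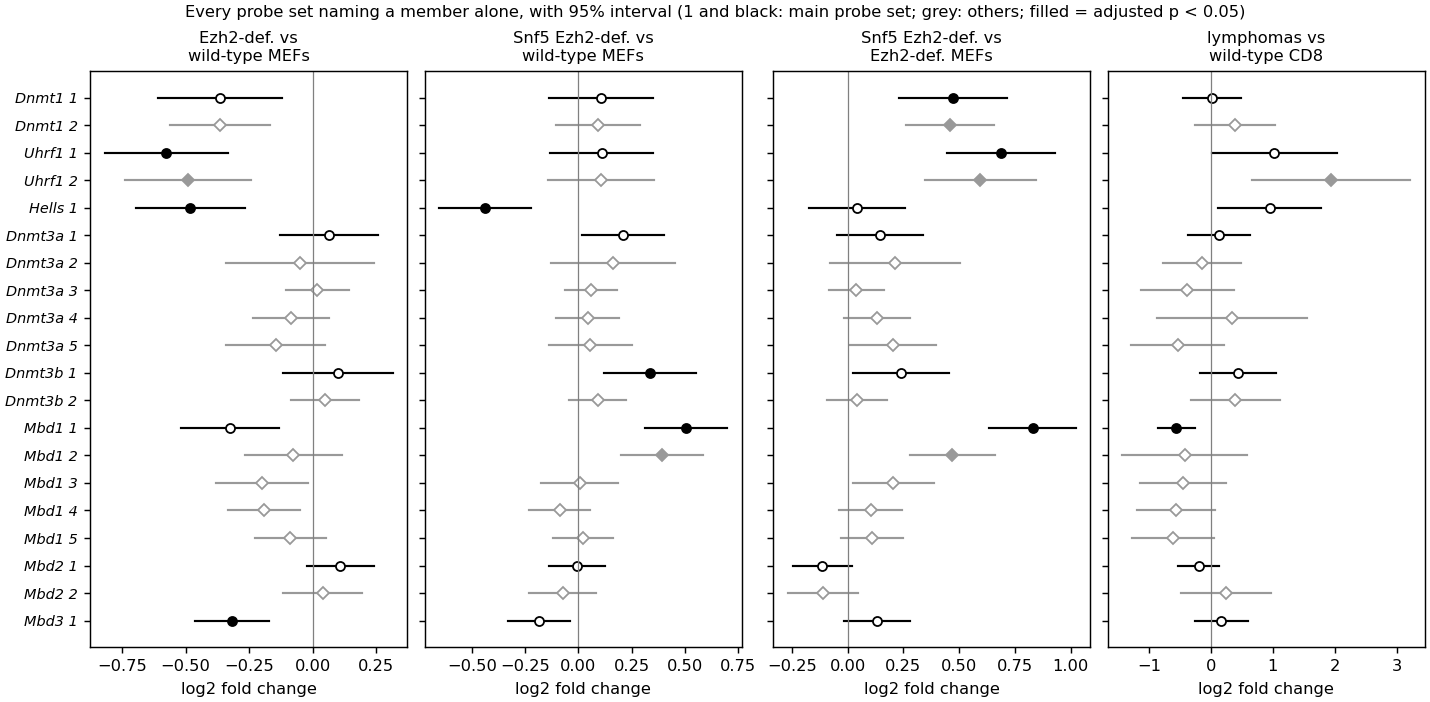
Difference in log2 level with its 95% interval for all 20 probe sets that name one of the genes alone, in the 4 comparisons (horizontal axes differ between panels). Number 1 and black mark the main probe set of a gene, grey the others, and filled symbols have an adjusted p under 0.05. Both Uhrf1 probe sets are filled in the Ezh2 comparison (-0.58 and -0.49), and 2 of the 5 Mbd1 probe sets are filled in the double mutants (0.51 and 0.39).

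Finally, each gene was set beside the genes with the most similar pattern over 20 arrays (9 MEF and 11 T cell), after the mean of each cell type was removed. As a description, with groups and arrays shared by all genes, Uhrf1 was closest to Ube2c, a ubiquitin-conjugating enzyme of mitosis (r = 0.97), Birc5, which encodes survivin (0.97), and Top2a (0.96), itself a component of the proliferation level. Dnmt1 was closest to Zmynd8 (0.93), Wbp11 (0.88) and Parp1 (0.87), and Hells to Slc25a39 (0.94), Pask (0.92) and Depdc1a (0.91). Dnmt3a was closest to Ccne1, the cyclin of S phase entry (0.86), Hpn (0.85) and Mns1 (0.84), and Dnmt3b to Srek1 (0.89), Pelp1 (0.85) and Ybx2 (0.84). Mbd1 was closest to Prkd3 (0.89), Mcl1, a survival gene (0.86), and Ifit1, an interferon-induced gene (0.85). Mbd2 was closest to Camk2g (0.89), Serpinb6b (0.86) and Marchf2 (0.85), and Mbd3 to Zswim1 (0.88), Sf3a3 (0.87) and Rpsa (0.86). Among the 8 genes in T cells, Uhrf1 and Hells had the highest mutual correlation (0.83, 11 arrays), and Dnmt1 and Uhrf1 had 0.62.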

How the data were processed

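The arrays were Affymetrix Mouse 430A 2.0, and the authors preprocessed the scans with RMA, per the labels' protocols. The deposited values are RMA intensity on a linear scale and were log2-transformed here, although the design had assumed values already in log2. The software that ran RMA is not given in these sources. The titles call the samples biological replicates without naming cultures or animals, so p-values measure the spread between these samples.

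The fits held 22626 probe sets, without the array's controls: 20380 named 1 gene, 691 several and 1555 none. limma 3.58.1 in R 4.3.3 was fitted to the 9 distinct MEF arrays (6 residual degrees of freedom) and to the 11 T cell arrays (9), with Benjamini-Hochberg adjustment over all probe sets and a threshold of 0.05. Values of the second MEF set were shifted by the controls' offset per probe set, whose error the difference between mutant lines ignores. The median SE was 0.0771 in MEFs and 0.236 in T cells, and the number of arrays limits the precision. Covariate fits and slopes used the proliferation level with groups as terms. Exact permutation tests enumerated 462 arrangements. Scripts were tested on simulated data.

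Genes named are the 8 genes, Mki67, Top2a, Ezh2 and Smarcb1, up to 3 called genes per list, comparison and direction with the largest differences, and the 3 genes most similar to each of the 8. Members and lists were chosen with earlier results of these data known. Promoter windows are from RefSeq (GRCm38.p6). Replicate numbers were not used as pairs in the main fits, as the titles do not say what same-numbered samples share. Correlations of their deviations from group means were 0.13, 0.15 and -0.03 (Ezh2-deficient), 0.02, 0.03 and -0.04 (Snf5 Ezh2-deficient) and 0.22, 0.26, 0.08, 0.31 and 0.10 (T cells). All T cell values were positive, and those of unequal number ranged from -0.23 to 0.24, so pairing there is not excluded.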

Additional observations from a re-analysis of the deposited data

Results flagged for a closer look

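Differences between the mutant MEF lines passed a test of the difference itself for 3 of the 8 genes, beside 29.9% of all genes called. Each line was set against the shared wild-type controls. The change in Snf5 Ezh2-deficient MEFs exceeded that in Ezh2-deficient MEFs by 0.83 on the log2 scale for Mbd1, by 0.69 for Uhrf1 and by 0.47 for Dnmt1. With the proliferation level as covariate the values were 0.66, 0.21 and 0.05, and none of the 3 was called. Dnmt1 also lost its call when all 12 MEF arrays entered with their own controls. In the groups of 5 and 6 T cell arrays, 0 of 18 sets of values held a single array far from the others by Dixon's criterion. The sets were the 8 genes and the proliferation level in both groups. The criterion takes the gap from the most extreme array to the next, so it cannot flag arrays that lie apart together. Wild-type CD8 arrays 3 and 4 did so for the proliferation level (9.58 and 9.64).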

How the results depend on the processing

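Each comparison was refitted with single processing choices changed. Values were taken as log2 of the value plus 16, as median-centred arrays or as the mean of all probe sets of a gene. Dim probe sets were left out (mean over the arrays of a fit in the lowest 25% of such means). Fits used trend and robust moderation, 1 MEF set alone, all 12 MEF arrays, a replicate block or each array left out. Others used the proliferation level as covariate or the level of Mcm2 to Mcm7 in its place. Leaving out wild-type CD8 arrays 3 and 4 or 1 and 6, and the 12-array fit between mutant lines, were chosen after seeing the data. Of the refitted values of single genes, 679 kept direction and side of the threshold, 49 lost a call, 8 gained one and 32 changed sign. The cause was not tested in any case. The calls of Mbd1 and Hells in double mutants against wild type held in every refit that was run.

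In Ezh2-deficient MEFs, 432 genes were called, and 258 with 1 set alone, 851 with 12 arrays, 5 with the covariate and 87 to 443 when 1 array was left out. Of the 8 genes, 0 were called with the covariate and 0 to 2 with 1 array left out. There Dnmt1 had 0.052, Dnmt3a -0.17 and Dnmt3b -0.077 with the covariate, and Dnmt3a had -0.039 as the mean of its probe sets and -0.008 to 0.14 with 1 array left out. Between the mutant lines, 3704 genes were called, 362 with the covariate and 1968 with 12 arrays, and 0 of the 8 with the covariate. Hells had -0.27 there with the covariate and -0.046 to 0.14 with 1 array left out. Mbd2 in double mutants ranged from -0.016 to 0.006 with 1 array left out. MEF slopes with 1 array left out ranged from -0.12 to 0.38 for Mbd1, -0.25 to 0.045 for Mbd2 and -0.18 to 0.21 for Mbd3.

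In the lymphomas, 2088 genes were called, and 3273 without wild-type arrays 1 and 6. Of the 8 genes, 0 were called with the mean of probe sets and 0 to 2 with 1 array left out. Dnmt1 had -0.003 after centring, -0.23 with the covariate, -0.22 without arrays 3 and 4 and -0.083 to 0.14 with 1 array left out. Dnmt3a had -0.077 with the covariate, -0.12 as the mean of probe sets and -0.11 without arrays 3 and 4. Mbd2 had 0.026 as the mean of probe sets. Of the T cell slopes, 1 was called after centring, 1 without arrays 1 and 6, 0 without arrays 3 and 4 and 1 to 3 with 1 array left out. Without arrays 3 and 4 the slopes were -0.011 for Dnmt1, -0.53 for Dnmt3a, -0.42 for Dnmt3b, 0.042 for Mbd2 and 0.012 for Mbd3.

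Whether samples of equal replicate number share more than that number is not stated in the titles. With the replicate number as a block, 213 genes and 0 of the 8 were called in Ezh2-deficient MEFs. The block also left 0 of the 8 in the lymphomas and 0 slopes in T cells, where Dnmt3b had -0.15, Mbd2 0.004 and Mbd3 0.016. The block changed no call among the 8 genes in the other comparisons. In each comparison, some samples did not correlate best with their own number.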
